A study of Mus musculus with 4 samples.

Results

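The proteasome subunit genes described here are those whose name on the array is Psm, a letter from a to g and a number, without the immunoproteasome genes Psmb8, Psmb9 and Psmb10. The array carries 44 such names with 86 probes, and 43 genes, out of 23522 features, passed the filter that a probe be well above background on 2 or more of the 4 arrays. All 43 genes were well above background on all 4 arrays. Psmb11, a catalytic subunit of the thymus, was well above background on 0 arrays and has no value below.

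The cells came from tumours of 4T1, a mouse mammary carcinoma line, grown from implanted cells in BALB/C mice that had no treatment. They were sorted with the ALDEFLUOR kit, in which aldehyde dehydrogenase (ALDH) turns a substrate into a fluorescent product that stays in the cell, into fractions of high and low ALDH activity. The 4 groups were ZT12 ALDH-high, ZT12 ALDH-low, ZT0 ALDH-high and ZT0 ALDH-low, where ZT is zeitgeber time, counted in hours from the start of the light phase. Each group had 1 array and no replicate, how many mice stood behind an array is not stated in the labels, and a difference between 2 arrays compares those arrays rather than the conditions. All values are levels on a log2 scale relative to each array's 75th percentile of signal, each gene is represented by its probe with the highest mean, and a difference of 1 is 2-fold.

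The proteasome is the protease that degrades proteins tagged with ubiquitin. Its 20S core is a barrel of outer rings of alpha subunits (Psma) and inner rings of beta subunits (Psmb), whose active sites face the inside. The 19S cap, built from ATPases (Psmc) and non-ATPase subunits (Psmd), binds the tagged protein, removes the ubiquitin and unfolds the chain into the core, while Psme proteins form other caps and Psmg proteins help to build the core. When proteasome activity is short in mammalian cells, the transcription factor encoded by Nfe2l1 raises the subunit genes together through antioxidant response elements.

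Some facts of the arrays bear on every value below. Both ZT12 arrays lay on 1 slide and both ZT0 arrays on another, so a difference of time cannot be told apart from one of slide. ZT12 ALDH-high and ZT0 ALDH-low shared array position 1_1, and ZT12 ALDH-low and ZT0 ALDH-high shared position 1_2, so an ALDH difference that turns with time and a difference between positions cannot be told apart. The spike-in slope was 0.789 and 0.873 at position 1_1, against 0.944 and 0.956 at position 1_2, the 75th percentile of the signal ran between 156.3 and 458.8, and 0 spots were saturated.

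The fractions also differed in transcripts of other cells. The summed level of 8 epithelial markers, in units of the array's 75th percentile, was 92.2 in ZT12 ALDH-high and 84.8 in ZT12 ALDH-low, against 11.5 in ZT0 ALDH-high and 192.3 in ZT0 ALDH-low. That of 4 leukocyte markers was 247.7 in ZT12 ALDH-high and 481.0 in ZT12 ALDH-low, and 736.0 in ZT0 ALDH-high and 172.9 in ZT0 ALDH-low. The 8 neutrophil markers summed to between 1559 and 2749 on the 4 arrays, while their median ALDH difference was -2.25 at ZT12 (5 of 8 lower by 2-fold or more, 1 higher by as much) and 3.55 at ZT0 (6 of 8 higher by 2-fold or more). The 5 measured erythroid markers were high on the position 1_1 arrays alone, at 241.7 in ZT12 ALDH-high and 714.3 in ZT0 ALDH-low, against 3.22 in ZT12 ALDH-low and 2.89 in ZT0 ALDH-high. Summed T and NK cell markers ran the same way (47.4 and 4.04 at ZT12, 16.3 and 37.0 at ZT0, ALDH-high then ALDH-low). So did summed B cell markers (36.3 and 1.47 at ZT12, 5.02 and 27.5 at ZT0). Of the 8 T and NK markers, 8 were at least 2-fold higher in ALDH-high at ZT12. At ZT0, 7 were at least 2-fold lower and 1 at least 2-fold higher (1.90). Summed macrophage markers lay between 137.1 and 217, with a median ALDH difference of 1.74 at ZT12 (3 of 6 at least 2-fold higher) and -1.53 at ZT0 (3 of 6 lower). Summed fibroblast markers between 13.1 and 23.9 and the 2 measured endothelial markers between 0.43 and 0.75, with Cdh5 and Tek not above the filter. What part these cells have in the values below was not tested, and in such bulk fractions fewer cells of a type and less RNA per cell cannot be told apart.

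Across the 43 proteasome genes the ALDH differences were small beside those of the whole array, which holds more dim features. The mean level was above the 75th percentile in 40 of 43 proteasome genes (93.0%), against 41.1% of all features. All 43 were well above background on all 4 arrays, as were 19301 of the 23522 features. What part the level has in the smaller differences was not tested. At ZT12 the median ALDH-high minus ALDH-low difference was 0.12, against 0.30 over all features, and 38 of 43 genes (88.4%) stayed within 2-fold, where 50.1% of all features were past it. At ZT0 the median was -0.30, against -0.32 over all features, and 36 of 43 (83.7%) stayed within 2-fold, where 52% of all features were past it. At ZT12, 4 genes were at least 2-fold higher in ALDH-high, where 32.2% of all features were, and 1 was at least 2-fold lower, where 17.9% were. At ZT0, 0 genes were at least 2-fold higher, where 20.5% of all features were, and 7 were at least 2-fold lower, where 31.5% were.

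The narrow spread was shared with another set of housekeeping genes. The range over the 4 arrays had a median of 0.53 in the proteasome genes, 0.55 in the 82 oxidative phosphorylation genes and 1.53 over all features. The 77 cytosolic ribosomal protein genes ranged further, with a median of 1.03, and their median ALDH difference was 0.65 at ZT12 and -0.90 at ZT0. Between 2 arrays of the same position, 43 of 43 proteasome genes lay within 2-fold, both at position 1_1 and at 1_2, where 93.2% and 79.1% of all features did.

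**Figure D1:**
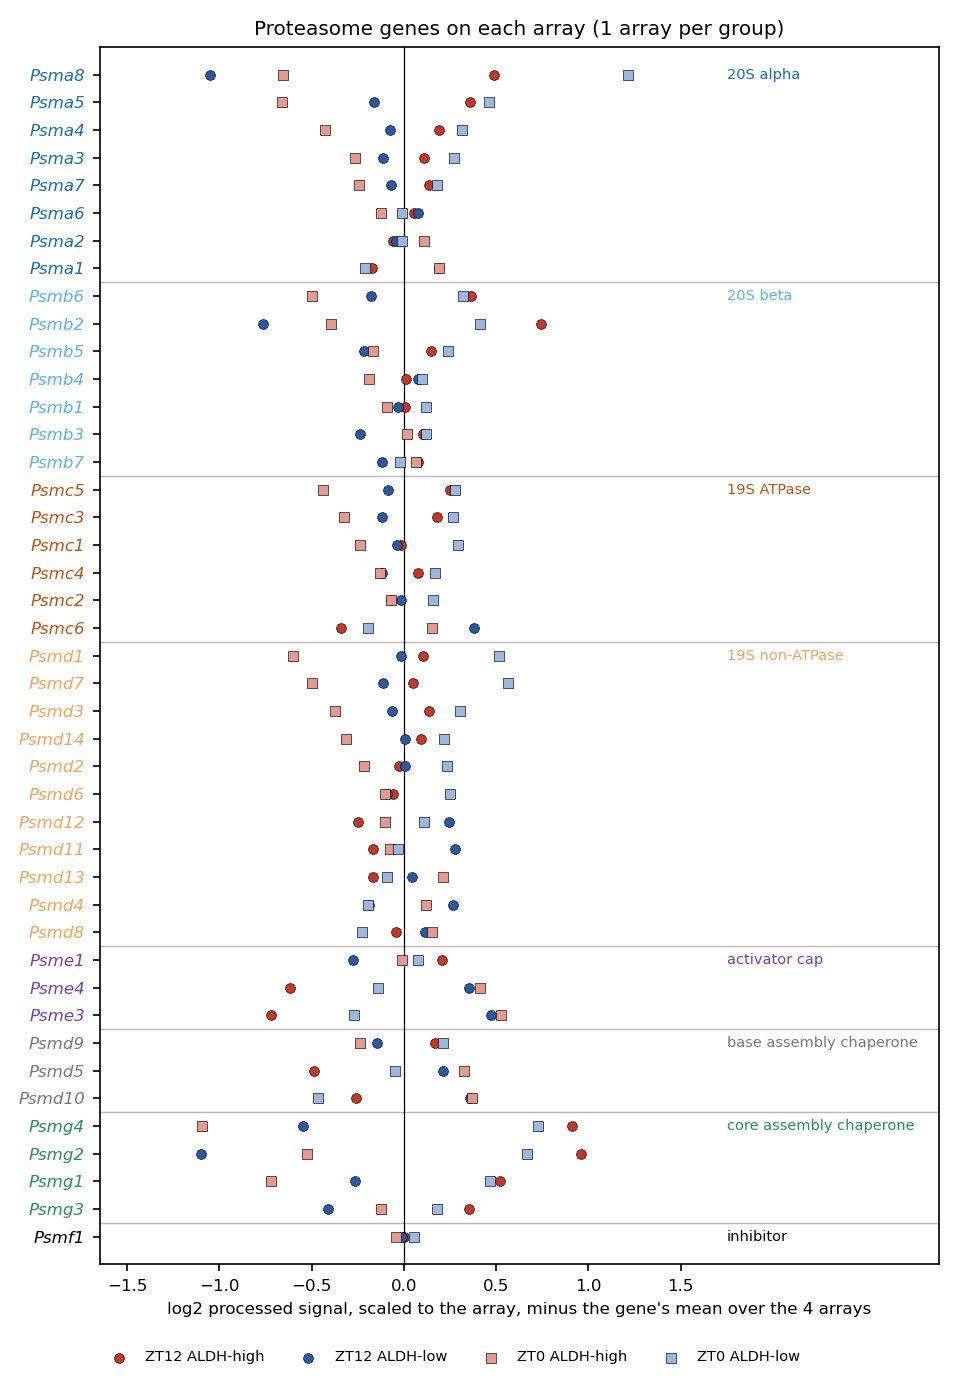
Scaled log2 signal of each of the 43 proteasome genes on each array minus the gene's own mean over the 4 arrays (x axis, log2 units), with genes down the page by class and 1 point per array. Points of most core and cap genes lie close to 0 (median range over the 4 arrays 0.46), while the core assembly chaperones Psmg4 and Psmg2 spread widest with Psma8, and Psme3 and Psme4 have ZT12 ALDH-high as their lowest array.

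The direction of the median beside all features depended on the scaling. With the 75th percentile the proteasome median minus that of all features was -0.18 at ZT12 and 0.02 at ZT0, but with quantile normalization it was 0.31 at ZT12 and -0.37 at ZT0. Beside all features, the medians of the alpha, ATPase and non-ATPase classes changed sign between scalings at ZT12, and that of the beta class did so at ZT0.

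Core and cap subunits had similar ALDH differences. At ZT12 the median difference of the 15 core genes was 0.22 and that of the 17 cap genes 0.02, a gap of 0.20 that lay between 0.14 and 0.32 under the other settings run. At ZT0 the core median was -0.41 and the cap median -0.35, a gap of -0.06 that was 0.18 with normexp and quantile normalization. The ranges of both sets overlapped, at -0.37 to 1.54 in the core and -0.72 to 0.33 in the cap at ZT12, and -1.87 to 0.40 in the core and -1.11 to 0.38 in the cap at ZT0.

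In the outer rings of the core, Psma8 and Psma1 had the lowest and highest difference at ZT0. Psma8, the alpha subunit of the testis form of the core, had dim signals of -2.70 in ZT12 ALDH-high and -4.24 in ZT12 ALDH-low, against -3.84 in ZT0 ALDH-high and -1.97 in ZT0 ALDH-low. Its difference was 1.54 at ZT12 and -1.87 at ZT0, and its second probe was well above background on 0 arrays. The broadly expressed counterpart of that subunit, Psma7, differed by 0.20 at ZT12 and by -0.42 at ZT0.

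Psma1 had 3.83 in ZT12 ALDH-high and 4.20 in ZT12 ALDH-low, against 4.20 in ZT0 ALDH-high and 3.80 in ZT0 ALDH-low. The ALDH-high array was thus the lower at ZT12 (-0.37) and the higher at ZT0 (0.40). Psma5 had 3.95 and 3.43 at ZT12 and 2.93 and 4.05 at ZT0 (ALDH-high, then ALDH-low), and was 2.18-fold lower in ALDH-high at ZT0. The other alpha genes, Psma2, Psma3, Psma4 and Psma6, differed by between -0.02 and 0.26 at ZT12 and between -0.74 and 0.11 at ZT0.

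Of the inner ring, Psmb5, Psmb6 and Psmb7 carry the active sites with chymotrypsin-like, caspase-like and trypsin-like cleavage, in that order. Psmb5 had 2.97 in ZT12 ALDH-high and 2.60 in ZT12 ALDH-low, against 2.65 in ZT0 ALDH-high and 3.05 in ZT0 ALDH-low. Psmb6 had 5.25 in ZT12 ALDH-high and 4.71 in ZT12 ALDH-low, against 4.39 in ZT0 ALDH-high and 5.21 in ZT0 ALDH-low. Psmb7 had 2.41 in ZT12 ALDH-high and 2.21 in ZT12 ALDH-low, against 2.40 in ZT0 ALDH-high and 2.32 in ZT0 ALDH-low.

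Psmb5 and Psmb6 were highest on the position 1_1 arrays, while the 4 values of Psmb7 stayed within a range of 0.20. The ALDH differences were 0.37 and -0.41 for Psmb5, 0.54 and -0.82 for Psmb6, and 0.20 and 0.08 for Psmb7, at ZT12 and ZT0 in this order. With median scaling the ZT12 differences of all 3 had the other sign (-0.51 for Psmb5, -0.33 for Psmb6 and -0.68 for Psmb7). The sign of the difference taken alone thus rests on the scaling. Relative to the median of all features at ZT12, Psmb5 (0.07 to 0.71) and Psmb6 (0.24 to 0.62) were higher under each of the 5 scalings. Psmb7 changed sign on that measure (-0.10 to 0.51). The structural beta genes Psmb1, Psmb3 and Psmb4 differed by between -0.06 and 0.34 at ZT12 and between -0.29 and -0.10 at ZT0.

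In immune cells and under interferon, Psmb8, Psmb9 and Psmb10 take the places of Psmb5, Psmb6 and Psmb7 in the newly built core. The probes of Psmb5 and its counterpart Psmb8 are shown because both genes were read on them and the paralogs are alike: of 50 aligned bases 31 (62%, in capitals) are identical. The Psmb5 probe lies at chr14:55233161-55233220 on the minus strand of mm9 and the Psmb8 probe at chr17:34337771-34337830 on the plus strand, both taken from the array files, and sequences are given 5′ to 3′.
Psmb5: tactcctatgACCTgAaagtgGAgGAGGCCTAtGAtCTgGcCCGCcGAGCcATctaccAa
Psmb8: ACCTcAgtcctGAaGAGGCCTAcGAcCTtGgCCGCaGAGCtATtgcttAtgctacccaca

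The inducible subunits did not move together. Psmb8 had 3.98 in ZT12 ALDH-high and 3.24 in ZT12 ALDH-low, against 3.84 in ZT0 ALDH-high and 3.92 in ZT0 ALDH-low. Psmb9 had 4.27 in ZT12 ALDH-high and 4.13 in ZT12 ALDH-low, against 4.90 in ZT0 ALDH-high and 3.91 in ZT0 ALDH-low. Psmb10 had 5.41 in ZT12 ALDH-high and 4.29 in ZT12 ALDH-low, against 3.82 in ZT0 ALDH-high and 5.17 in ZT0 ALDH-low. At ZT0 Psmb9 was 0.99 higher in ALDH-high and Psmb10 1.35 lower (difference -1.35), whereas Psmb7, whose place Psmb10 takes, differed by 0.08. A dim probe of Psmb9 on an Ensembl transcript, well above background on 2 arrays, differed by 2.65 at ZT0. At ZT12 it differed by -1.17, against 0.14 on the probe used.

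Psmb2, a structural beta subunit, gave different values on its probes. Its probe with the highest mean was designed on a cDNA clone and had 3.80 in ZT12 ALDH-high and 2.29 in ZT12 ALDH-low, against 2.66 in ZT0 ALDH-high and 3.47 in ZT0 ALDH-low. The difference was 1.51 at ZT12 and -0.81 at ZT0 on this probe (A_55_P2738097), and 0.55 and 0.21 at ZT12 and -0.61 and -0.47 at ZT0 on the RefSeq mRNA probes A_51_P404084 and A_55_P2922574. The 3 probe sequences are shown because the RefSeq probes share 36 bases and are split over a gap in mm9 (chr4:126361456-126364299 and chr4:126361432-126364275, plus strand), and the cDNA probe at chr4:126362768-126362827 lies within that gap.
A_55_P2738097: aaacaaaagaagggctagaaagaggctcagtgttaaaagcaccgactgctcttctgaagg
A_51_P404084: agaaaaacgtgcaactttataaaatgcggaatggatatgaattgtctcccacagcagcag
A_55_P2922574: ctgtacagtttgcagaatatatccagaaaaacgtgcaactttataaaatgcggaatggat

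The ATPases of the cap form the ring that unfolds the substrate. Psmc5 had the lowest ZT0 difference of the class, with 2.43 in ZT12 ALDH-high and 2.10 in ZT12 ALDH-low, against 1.74 in ZT0 ALDH-high and 2.46 in ZT0 ALDH-low. Psmc6 had the highest, with 3.62 in ZT12 ALDH-high and 4.34 in ZT12 ALDH-low, against 4.11 in ZT0 ALDH-high and 3.77 in ZT0 ALDH-low. The pair ran opposite ways at both times: the difference of Psmc5 was 0.33 at ZT12 and -0.72 at ZT0, and that of Psmc6 was -0.72 at ZT12 and 0.34 at ZT0. Psmc1, Psmc2, Psmc3 and Psmc4 lay between -0.06 and 0.29 at ZT12 and between -0.59 and -0.23 at ZT0, so 0 of 6 ATPases reached 2-fold at either time.

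Among the 11 non-ATPase subunits, Psmd1, a large scaffold of the base, and Psmd7, the partner of the deubiquitinase Psmd14 in the lid, were past 2-fold at ZT0. Psmd1 had 3.25 in ZT12 ALDH-high and 3.13 in ZT12 ALDH-low, against 2.55 in ZT0 ALDH-high and 3.66 in ZT0 ALDH-low. Psmd7 had 1.37 in ZT12 ALDH-high and 1.21 in ZT12 ALDH-low, against 0.82 in ZT0 ALDH-high and 1.89 in ZT0 ALDH-low. In both genes the ZT0 arrays were the lowest and the highest of the 4, with a difference of -1.11 in Psmd1 and -1.06 in Psmd7, while the ZT12 arrays differed by 0.12 and 0.16. With median scaling these ZT0 differences were under 2-fold, at -0.63 in Psmd1 and -0.58 in Psmd7.

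Psmd8, a lid subunit, had the highest ZT0 difference of the class, with 2.34 in ZT12 ALDH-high and 2.50 in ZT12 ALDH-low, against 2.54 in ZT0 ALDH-high and 2.16 in ZT0 ALDH-low. Its difference was -0.16 at ZT12 and 0.38 at ZT0. The ubiquitin receptor Psmd4 differed by -0.46 at ZT12 and 0.31 at ZT0, and Psmd14 by 0.09 at ZT12 and -0.53 at ZT0. The scaffold Psmd2 and the lid subunits Psmd3, Psmd6, Psmd11, Psmd12 and Psmd13 lay between -0.50 and 0.20 at ZT12 and between -0.68 and 0.30 at ZT0.

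At ZT12 the activator genes Psme3 and Psme4 had the lowest ALDH differences of the 43 genes. Psme3, the subunit of the nuclear activator PA28 gamma, had 0.69 in ZT12 ALDH-high and 1.89 in ZT12 ALDH-low, against 1.94 in ZT0 ALDH-high and 1.14 in ZT0 ALDH-low. Psme4, the activator PA200, had 2.02 in ZT12 ALDH-high and 2.99 in ZT12 ALDH-low, against 3.05 in ZT0 ALDH-high and 2.50 in ZT0 ALDH-low. In both genes the position 1_2 arrays were the higher, and the difference was -1.20 at ZT12 and 0.80 at ZT0 in Psme3 and -0.97 at ZT12 and 0.55 at ZT0 in Psme4.

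Psme1, an interferon-inducible PA28 subunit, ran the other way at ZT12, with 4.57 in ZT12 ALDH-high and 4.09 in ZT12 ALDH-low, against 4.36 in ZT0 ALDH-high and 4.44 in ZT0 ALDH-low. With median scaling its ZT12 difference was -0.39, so the sign of the difference taken alone rests on the scaling. Relative to the median of all features, Psme1 was higher at ZT12 under each of the 5 scalings (0.18 to 0.70). At ZT0 it changed sign on that measure (-0.45 to 0.23). The array has no feature of the name Psme2, and that named Psme2b, which is outside the rule, differed by 0.30 at ZT12 and 0.02 at ZT0. On the same measure Psme4, whose value is the median of the 3 Psme genes, was lower at ZT12 (-1.27 to -0.62) under each scaling. It was higher at ZT0 (0.12 to 0.87). Psme3 was likewise lower at ZT12 (-1.49 to -0.97) and higher at ZT0 (0.54 to 1.11), so Psme1 ran apart from both at ZT12. A probe of Psme3 designed on an Ensembl transcript differed by 0.28 at ZT12 and -0.11 at ZT0, with the signs opposite to those of the RefSeq probe.

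Psmd5, Psmd9 and Psmd10 hold parts of the 19S base during assembly and are not in the finished particle. Psmd10 (gankyrin) had 1.51 in ZT12 ALDH-high and 2.13 in ZT12 ALDH-low, against 2.14 in ZT0 ALDH-high and 1.30 in ZT0 ALDH-low. Psmd9 had -0.18 in ZT12 ALDH-high and -0.50 in ZT12 ALDH-low, against -0.59 in ZT0 ALDH-high and -0.14 in ZT0 ALDH-low. Psmd10 was thus lower in ALDH-high at ZT12 (-0.62) and higher at ZT0 (0.84), Psmd5 likewise (-0.70 and 0.38), and Psmd9 ran opposite (0.32 and -0.45). With median scaling Psmd9 had -0.56 and 0.03, the signs of Psmd5 and Psmd10. Relative to the median of all features, Psmd9 was slightly higher at ZT12 (0.017 to 0.15) and lower at ZT0 (-0.22 to -0.13) under each of the 5 scalings. Psmd5 and Psmd10 had the opposite signs throughout on that measure.

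Psmg1, Psmg2, Psmg3 and Psmg4 guide the alpha ring during core assembly, and had the widest range over the 4 arrays of any class (median 1.62). Psmg4 had 1.13 in ZT12 ALDH-high and -0.32 in ZT12 ALDH-low, against -0.87 in ZT0 ALDH-high and 0.96 in ZT0 ALDH-low. Psmg3 had 1.31 in ZT12 ALDH-high and 0.55 in ZT12 ALDH-low, against 0.84 in ZT0 ALDH-high and 1.14 in ZT0 ALDH-low. In these and in Psmg1 and Psmg2 both position 1_1 arrays were above both position 1_2 arrays, in 4 of 4 genes, an order that 47.9% of all features had.

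Psmg2, given on every array after its values were seen, had 1.78 in ZT12 ALDH-high and -0.27 in ZT12 ALDH-low, against 0.30 in ZT0 ALDH-high and 1.49 in ZT0 ALDH-low. The differences at ZT12 and ZT0 were 1.45 and -1.82 in Psmg4, 2.06 and -1.20 in Psmg2, 0.79 and -1.19 in Psmg1, and 0.77 and -0.30 in Psmg3. Relative to the median of all features, the median of the 4 genes was higher at ZT12 (0.82 to 1.31) and lower at ZT0 (-1.36 to -0.87) under each of the 5 scalings. These values of Psmg2 are from a cDNA probe, and its RefSeq probe differed by 0.72 at ZT12 and -1.50 at ZT0. Pomp, the maturation factor of the beta ring from the wider pathway list, had 5.56 in ZT12 ALDH-high and 5.67 in ZT12 ALDH-low, against 5.46 in ZT0 ALDH-high and 5.66 in ZT0 ALDH-low, a range of 0.21 over the 4 arrays. Psmf1, an inhibitor of the core, was similarly flat at -0.66 in ZT12 ALDH-high and -0.68 in ZT12 ALDH-low, against -0.71 in ZT0 ALDH-high and -0.61 in ZT0 ALDH-low.

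**Figure D2:**
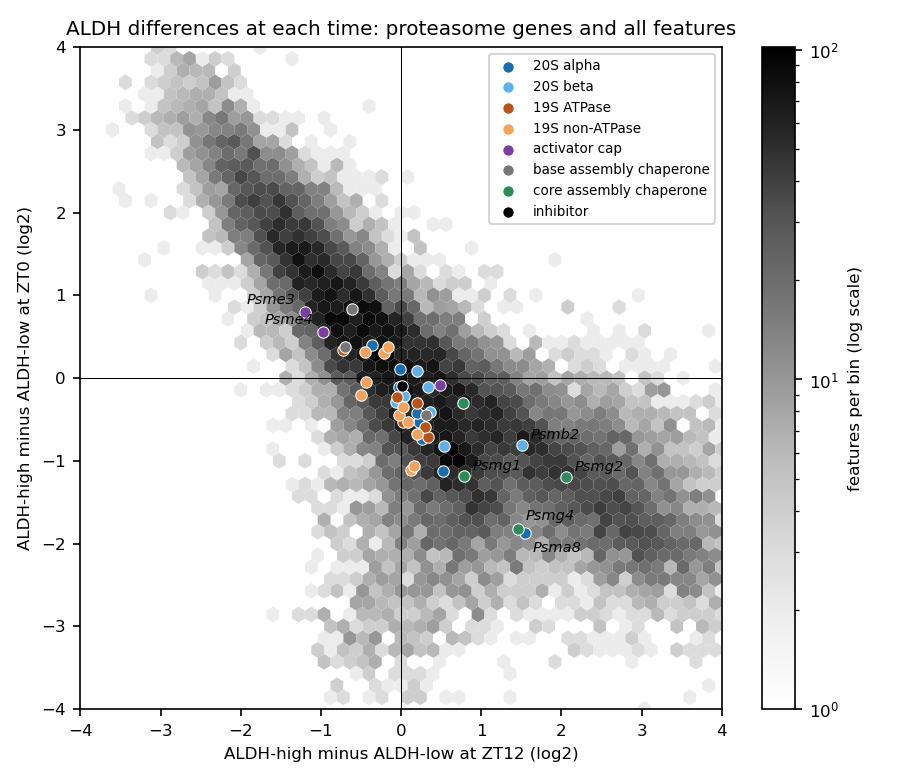
ALDH-high minus ALDH-low difference at ZT12 (x axis, log2) against that at ZT0 (y axis, log2) for the 43 proteasome genes, coloured by class, over the density of all features (grey, log scale of features per bin; 838 of 23522 features lie outside the axes). Most proteasome genes lie near the centre of a cloud that runs from upper left to lower right, with Psmg2, Psmg4, Psma8 and Psmb2 toward the lower right and Psme3 and Psme4 toward the upper left.

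The reversal of sign between times was not particular to these genes. The ALDH difference had opposite signs at ZT12 and ZT0 in 36 of 43 proteasome genes (83.7%), against 84.2% of all features. Psma8, Psmg2 and Psmg4 were 2-fold or more higher in ALDH-high at ZT12 and 2-fold or more lower at ZT0, where 20.4% of all features were, and 0 genes had the opposite pattern, where 15% were. A difference of at least 2-fold in the same direction at both times was found in 0 proteasome genes, where 0.523% of all features had one.

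The comparison of times used the same 4 arrays. ZT12 minus ZT0 had a median of 0.21 over the 43 genes in ALDH-high, against 0.33 over all features, and of -0.29 in ALDH-low, against -0.42. In ALDH-high 35 of 43 genes stayed within 2-fold, where 53.2% of all features were past it, and in ALDH-low 39 did, where 50.1% were past it. In ALDH-high 6 genes were at least 2-fold higher at ZT12, where 32.5% of all features were, namely Psmg4 (2.001), Psmg2 (1.48), Psmg1 (1.24), Psma8 (1.14), Psmb2 (1.14) and Psma5 (1.02). Psme3 (-1.25) and Psme4 (-1.03) were at least 2-fold lower there, where 20.8% of all features were. In ALDH-low 0 genes were at least 2-fold higher at ZT12, where 17.5% of all features were, and 4 were at least 2-fold lower, where 32.7% were: Psma8 (-2.27), Psmg2 (-1.77), Psmg4 (-1.27) and Psmb2 (-1.18). The values of Psmb2 and Psmg2 are those of cDNA probes. On its RefSeq probes Psmb2 was under 2-fold in ALDH-high (0.66 and 0.34) and in ALDH-low (-0.50 and -0.34). The RefSeq probe of Psmg2 had 1.64 in ALDH-high and -0.58 in ALDH-low.

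No proteasome gene was called in the additive fit of ALDH arm and time with limma across all features. The fit called 0 of 23522 features (0%) for ALDH, with 7 at an unadjusted p under 0.05, and 0 (0%) for time, with 2. The lowest unadjusted p of a proteasome gene was 0.748 for ALDH and 0.715 for time, and the lowest adjusted p of both rounded to 1. With 1 array per group, the only residual of this fit was the change of the ALDH difference with time. That difference had opposite signs at ZT12 and ZT0 in 84.2% of all features. The standard error, 1.54 log2 units for each gene, measured that change and not a spread between replicates. The 0 calls therefore decide nothing about an effect of ALDH or time.

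RefSeq mRNA probes of 1 gene gave close ALDH differences in the median, but not always the same sign. Those of Psmd3 had 0.20 and -0.41 at ZT12, and the signs also differed at ZT12 in Psmb4, Psmd1 and Psmd14 and at ZT0 in Psmc4. Counting every kind of probe, 25 genes had several that passed the filter. Their probes all had the same sign in 18 of the 25 at ZT12 and in 22 at ZT0. In 18 genes with several RefSeq mRNA probes, the ALDH differences of those probes spread by a median of 0.17 at ZT12 and 0.20 at ZT0, and by at most 0.61 and 0.39. Another 13 probes of 12 genes were designed on a cDNA clone, an Ensembl transcript or a RefSeq model. In 9 of 13 pairs that probe gave a higher difference at ZT12 than the RefSeq probe, and in 10 of 13 a lower one at ZT0, and 6 and 7 of the 13 probes were themselves past 2-fold at these times, where 50.1% and 52% of all features were.

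Psmd1 had the widest such gap at ZT12, 2.26, and one of -0.47 at ZT0. Its Ensembl probe A_55_P2720274 had 0.94 in ZT12 ALDH-high and -1.45 in ZT12 ALDH-low, against -0.96 in ZT0 ALDH-high and 0.62 in ZT0 ALDH-low. Another of its RefSeq probes, A_55_P2798363, had 3.18 in ZT12 ALDH-high and 3.20 in ZT12 ALDH-low, against 2.55 in ZT0 ALDH-high and 3.45 in ZT0 ALDH-low. At ZT12 the difference was therefore 2.38 on the first and -0.02 on the second. The 3 RefSeq probes of Psmd1 lay between -0.02 and 0.12 at that time, and the Ensembl probe alone was past 2-fold. The sequences of A_55_P2720274 and A_55_P2798363, from chr1:87964118-87964177 and from chr1:88027281-88029323 (split, plus strand, mm9), are shown because their ZT12 differences are unlike.
A_55_P2720274: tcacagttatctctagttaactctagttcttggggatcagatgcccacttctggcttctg
A_55_P2798363: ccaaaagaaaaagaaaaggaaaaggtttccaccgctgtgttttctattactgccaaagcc

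A cDNA probe of Psmd7 differed by 2.11 at ZT12 and -2.05 at ZT0, against 0.16 and -1.06 on the RefSeq probe. An Ensembl probe of Psmg3 differed by 2.79 and -1.82, against 0.77 and -0.30, and one of Psmc2 by 1.46 and -1.30, against -0.06 and -0.23. The RefSeq mRNA probe was the one used in 41 of 43 genes, the exceptions being Psmb2 and Psmg2. For Psmg2 the RefSeq probe differed by 0.72 at ZT12 and -1.50 at ZT0, and for Psmb2 both RefSeq probes were under 2-fold at ZT12, so that on RefSeq probes Psma8 and Psmg4 were past 2-fold above ALDH-low at that time. Whether these probes lie in exons, introns or untranslated regions was not analysed here.

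**Figure D3:**
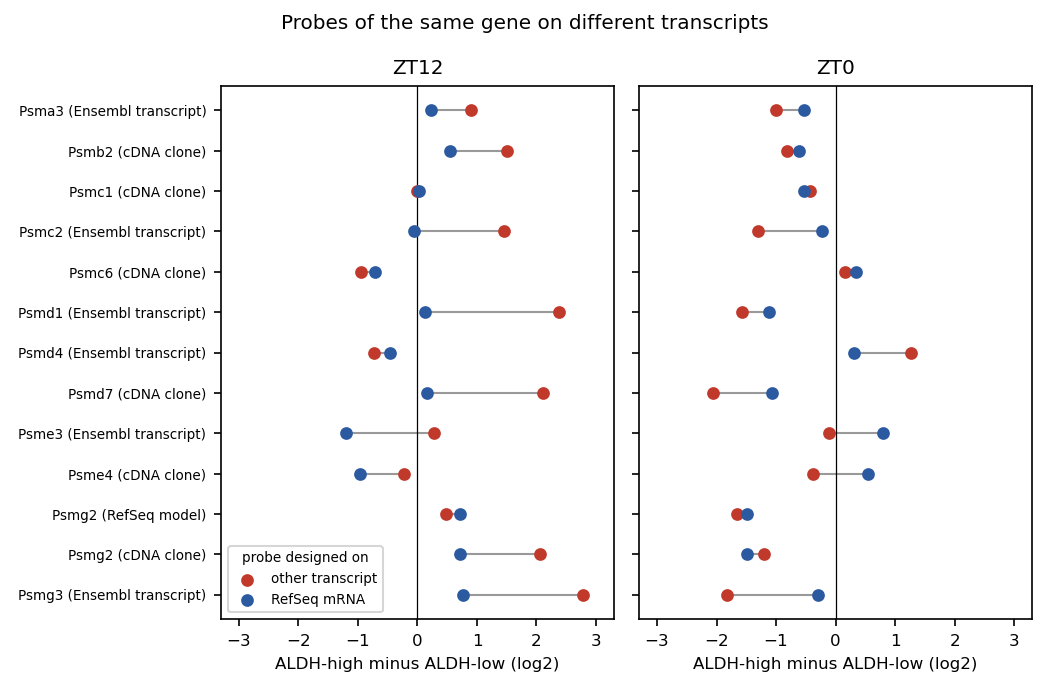
ALDH-high minus ALDH-low difference (x axis, log2) at ZT12 (left) and ZT0 (right) on probes of the same gene, with 1 row per pair; the red point is the probe designed on a cDNA clone, Ensembl transcript or RefSeq model and the blue point the gene's RefSeq mRNA probe. The red points of Psmd1, Psmd7, Psmg3 and Psmc2 lie between 1.46 and 2.79 at ZT12, where their blue points lie between -0.06 and 0.77.

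Some genes that act with the proteasome had larger ALDH differences than its subunits. Of 30 listed genes 29 were measured, 0 were called by limma for ALDH or for time, and in ALDH-high 1 lay 2-fold or more above ALDH-low and 5 lay 2-fold or more below it at ZT12, with 8 above and 2 below at ZT0. Of all features 32.2% lay above and 17.9% below by this much at ZT12, and 20.5% above and 31.5% below at ZT0. Nfe2l1, the transcription factor of the subunit genes, had, on its probe with the highest mean (A_51_P491720), 3.71 in ZT12 ALDH-high and 2.74 in ZT12 ALDH-low, against 2.32 in ZT0 ALDH-high and 3.14 in ZT0 ALDH-low. Its other RefSeq probe (A_55_P2022277) was dimmer and had -2.17 in ZT12 ALDH-high and -1.13 in ZT12 ALDH-low, against -1.32 in ZT0 ALDH-high and -1.79 in ZT0 ALDH-low. The ALDH differences of Nfe2l1 were 0.97 at ZT12 and -0.82 at ZT0 on the first probe, -1.05 and 0.47 on the second, and -0.038 and -0.17 with the mean of both, so these arrays give the gene no single direction. Its relative Nfe2l2, the factor of the oxidative stress response, had 2.83 in ZT12 ALDH-high and 4.75 in ZT12 ALDH-low, against 5.03 in ZT0 ALDH-high and 2.53 in ZT0 ALDH-low. The differences of Nfe2l2 were -1.93 at ZT12 and 2.50 at ZT0, and -2.23 and 2.91 with the mean of its probes.

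Ddi2, the protease that cleaves the Nfe2l1 protein, had 0.88 in ZT12 ALDH-high and 2.87 in ZT12 ALDH-low, against 3.03 in ZT0 ALDH-high and 0.94 in ZT0 ALDH-low. Ngly1, which removes its sugar chains, had -0.57 in ZT12 ALDH-high and 1.68 in ZT12 ALDH-low, against 1.91 in ZT0 ALDH-high and -0.52 in ZT0 ALDH-low. Both were higher on the position 1_2 arrays, with a difference of -1.99 at ZT12 and 2.09 at ZT0 in Ddi2 and of -2.25 and 2.43 in Ngly1.

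Zfand5, a protein that stimulates the 26S proteasome, had 2.996 in ZT12 ALDH-high and 4.68 in ZT12 ALDH-low, against 5.03 in ZT0 ALDH-high and 2.60 in ZT0 ALDH-low. Sqstm1, a ubiquitin-binding autophagy receptor, had 4.71 in ZT12 ALDH-high and 5.84 in ZT12 ALDH-low, against 5.70 in ZT0 ALDH-high and 4.67 in ZT0 ALDH-low. With Nfe2l2, Ddi2 and Ngly1 these make 5 genes 2-fold or more lower in ALDH-high at ZT12 and 2-fold or more higher at ZT0, a pattern that 15% of all features had. The signs of these 5 were the same under each of the 5 scalings and with the mean of the probes. The polyubiquitin gene Ubb (-0.66 at ZT12 and 1.44 at ZT0) had the same order. Rps27a (0.23 and -0.22), which encodes ubiquitin fused to a ribosomal protein, had the opposite one at smaller size under the main scaling alone. Under each of the other scalings Rps27a had the signs of Ubb. Its differences there lay between -0.64 and -0.34 at ZT12 and between 0.01 and 0.26 at ZT0. The sign of its difference, taken alone, thus rests on the scaling. Relative to the median of all features, Rps27a had the order of Ubb under each of the 5 scalings. Rps27a lay at -0.66 to -0.065 at ZT12 and 0.096 to 0.21 at ZT0 on that measure. Ubb lay further out, at -1.87 to -0.96 and 1.76 to 2.12.

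**Figure D4:**
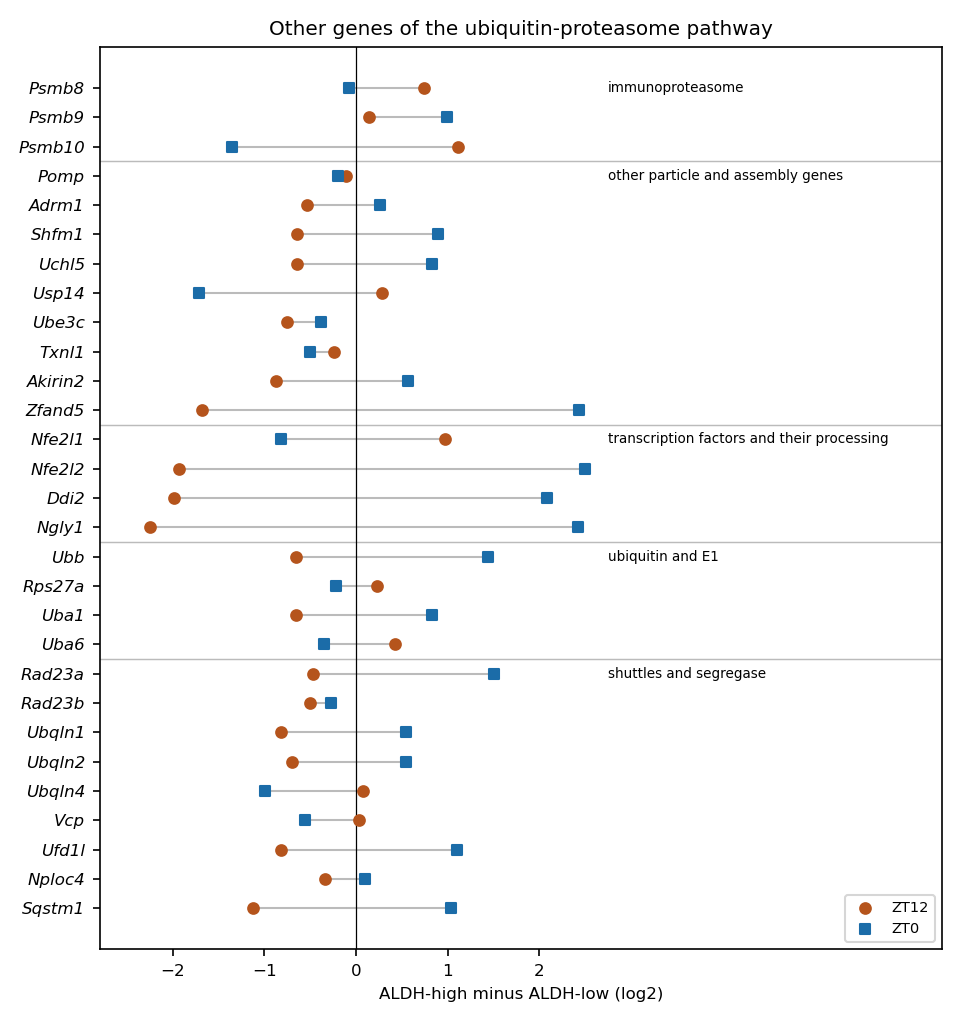
ALDH-high minus ALDH-low difference (x axis, log2) at ZT12 (circles) and ZT0 (squares) of 29 other genes of the ubiquitin-proteasome pathway, grouped by role, with a line joining the times of each gene. Nfe2l2, Ddi2, Ngly1 and Zfand5 lie at or below -1.68 at ZT12 and at or above 2.09 at ZT0. Nfe2l1 and Psmb10 have the opposite order, in Nfe2l1 on the plotted probe and not on its other RefSeq probe.

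Promoter letters were read for motifs of factors linked to subunit genes, from RefSeq windows of GRCm38.p6 that end at the start site and reach 250 bases before it. Windows were found for 35 of 43 genes, 37 in all, against 32851 of any gene, and the motifs were chosen with the array results known. The antioxidant response element core TGACNNNGC, searched on both strands, was in 5 of 37 windows (13.5%) and in 10.2% of all. The ETS-type letters CGGAAG, on both strands, were in 19 of 37 (51.4%) and in 13.6% of all, CCAAT on both strands in 12 (32.4%) and 33.8% of all, and the E-box CACGTG, which clock factors and others can bind, in 3 (8.11%) and 6.02%. The letters of no motif contain those of another.

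The windows around the antioxidant element are shown for the catalytic genes Psmb5 and Psmb6 and for Psmd9, and those around the E-box for Psma4, Psmd9 and Psme3, with the motif in capitals on the strand of the gene. A match of letters is a description and not a binding site. Psmb5 is at chr14:54618018-54618058 (minus strand), Psmb6 at chr11:70525332-70525356, Psmd9 at chr5:123228143-123228183 and chr5:123228123-123228160, Psma4 at chr9:54950703-54950740 and Psme3 at chr11:101316153-101316190 (plus strand). The antioxidant element was also in the windows of Psmc6 and Psmd12, on the opposite strand, which are not shown. Genes with this element did not share a direction. At ZT12 and ZT0 Psmb5 differed by 0.37 and -0.41, Psmb6 by 0.54 and -0.82, and Psmd9 by 0.32 and -0.45. Psmc6 differed by -0.72 and 0.34, and Psmd12 by -0.50 and -0.21. Of the E-box genes shown, Psma4 differed by 0.26 at ZT12 and -0.74 at ZT0, Psmd9 by 0.32 and -0.45, and Psme3 by -1.20 and 0.80.
Psmb5: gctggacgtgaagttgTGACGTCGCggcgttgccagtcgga
Psmb6: ggcggactaaagagagTGACGGAGC
Psmd9: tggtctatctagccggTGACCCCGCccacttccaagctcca
Psma4: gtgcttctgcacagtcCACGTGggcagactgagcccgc
Psmd9: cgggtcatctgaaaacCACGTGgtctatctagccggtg
Psme3: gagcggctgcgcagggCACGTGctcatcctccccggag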

How the data were processed

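Per the file headers, Agilent Feature Extraction 10.7.1.1 read the authors' scans, with mm9 positions; per the submitters' processing notes the version was 9.5.1.1. The processed signal that the authors deposited is a linear intensity, corrected within each array per the file headers. The deposited series table also holds linear, uncentred intensity, with a median of 28.3 in each of 4 columns, and each column ranks probes as its array does (Spearman 1).

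Control and outlier spots were left out, spots of a probe were averaged, and log2 of the deposited signal minus the array's 75th percentile was used. The filter (2 or more of 4 arrays well above background) kept 34576 of 56605 probes, and the brightest probe stood for each name. Replicate spots had a median SD between 0.0370 and 0.0450 log2 units, which says nothing of the spread between tumours.

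A two-sided additive fit on ALDH arm and time used lmFit and eBayes of limma 3.58.1 (R 4.3.3), with Benjamini-Hochberg adjustment across 23522 features and a threshold of 0.05, and was tested on simulated data. Its p-values rest on the ALDH by time difference of these 4 arrays, the only residual of the fit, and not on a spread between replicates. The genes were named by class, with values on every array for the catalytic subunits, all Psme genes and the highest and lowest ZT0 difference of each class; other genes of the pathway were named when past 2-fold at both times, with Nfe2l1, Nfe2l2, Pomp and the immunoproteasome genes. Psma5, Psmd7, Psmb2, Psmg2, Psmd4, Psmd14, Ubb and Rps27a were added after their values were seen. Some listed genes are not reported here. The members, lists and rules were chosen with earlier results of these data known. Alternatives were quantile and median scaling, normexp with an offset of 50, other background filters, the series table, the mean of a gene's probes, another cap definition and, added after seeing the data, RefSeq probes alone. Other steps ran in Python 3.11.15 (pandas 2.3.3 and numpy 2.4.6; plots with matplotlib 3.10.9).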

Additional observations from a re-analysis of the deposited data

Results flagged for a closer look

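The ALDH-high minus ALDH-low difference at ZT12 minus that at ZT0 was large with opposite signs at the 2 times in 9 of the 72 proteasome and pathway genes measured, and this difference of differences was not tested. It was 3.41 in Psma8, 3.25 in Psmg2, 3.27 in Psmg4 and 2.47 in Psmb10, which were higher in ALDH-high at ZT12 and lower at ZT0, as 20.4% of all features were by 2-fold or more at both times. The value of Psmg2 is from a cDNA probe, and on its RefSeq probe the gene was under 2-fold at ZT12 (0.72). It was -4.68 in Ngly1, -4.43 in Nfe2l2, -4.11 in Zfand5, -4.07 in Ddi2 and -2.16 in Sqstm1, which were lower in ALDH-high at ZT12 and higher at ZT0, as 15% of all features were. The quantity is the same on these 4 arrays as the contrast of array positions, and the 2 cannot be told apart.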

How the results depend on the processing

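The proteasome median beside that of all features depended on the settings, and the cause was not tested. For ALDH at ZT12 it was -0.18, and 0.31 with quantile normalization, 0.20 with normexp, 0.35 on the series table, -0.077 with the filter on all 4 arrays and -0.86 with no filter. For ALDH at ZT0 it was 0.02, and in the same order -0.37, -0.40, -0.64, -0.062 and 0.24, with -0.052 for the mean of the probes. For ZT12 minus ZT0 in ALDH-high it was -0.12, and in the same order 0.30, 0.33, 0.43, -0.045 and -0.61. In ALDH-low it was 0.12, and in the same order -0.31, -0.38, -0.49, 0.013 and 0.61. Core minus cap for ALDH at ZT0 was -0.06, and 0.18 with normexp, 0.083 on the series table and -0.18 with every Psmc, Psmd and Psme gene in the cap; at ZT12 it was 0.20, and 0.32 with the mean of the probes. Median scaling moved the median of all features at ZT12 to -0.57 and at ZT0 to 0.17, and gave the other sign in 23 of 43 proteasome genes at ZT12 and in 16 at ZT0. Of the 5 proteasome genes past 2-fold at ZT12 and the 7 at ZT0, 0 changed sign under the scalings or the mean of the probes, but with median scaling 2 and 2 stayed past 2-fold. When 1 array was left out, limma called 0 features for ALDH and 0 to 1 for time, with the lone array of an arm assumed to vary like the other arm; the 1 was called when the ZT12 ALDH-high array was absent. A fit with position as the block called 0 for both, with 1916 and 362 at an unadjusted p under 0.05. No paired analysis was possible because the groups share fewer than 2 replicate numbers; time, which is the slide, was already a term of the fit. The values are limited by 1 array a group, and dim probes such as those of Psma8 by background.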
